A study of Homo sapiens with 12 samples.

Results

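Genes of the NRF2 and glutathione antioxidant system were examined in H929, a human myeloma cell line, over 4 groups of 3 arrays. The members are 10 genes fixed by name: NFE2L2, KEAP1, HMOX1, NQO1, GCLC, GCLM, SRXN1, TXN, PRDX1 and SLC48A1. They were chosen with earlier results of these data known, so their counts beside the shares of all genes are a description. The platform annotation assigned to the members 22 of the 54613 probe sets that are not controls. A probe set is a group of probes read as 1 value, and some can match several transcripts. All 10 genes were measured, out of 15587 genes. One group was untreated. The others were exposed for 24 hours to 250 nM CHR-3996, an inhibitor of histone deacetylases, to 1 µM tosedostat (CHR-2797), an inhibitor of aminopeptidases, or to both at these doses, which is called the combination here. All samples come from this 1 line, grown in medium with serum and without other cells. The labels call the 3 samples of a group biological replicates. Whether each was its own culture is not stated, and p-values therefore measure the spread between these 12 samples.

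NFE2L2 encodes NRF2, the transcription factor that switches on genes against oxidants and reactive chemicals. KEAP1 binds NRF2 and hands it to a ubiquitin ligase for destruction, and when oxidants modify KEAP1, NRF2 accumulates and binds antioxidant response elements beside its target genes. Its targets include heme oxygenase, quinone reductase, the enzyme that starts glutathione synthesis, and proteins that keep thioredoxin and peroxiredoxins working. Plasma cells secrete large amounts of antibody, and the disulfide bonds made in it produce oxidants. The arrays measure mRNA, so they do not show the amount of NRF2 protein, its place in the cell or its binding to DNA.

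Within groups, the arrays had a Pearson r of 0.978 to 0.983 with each other over all probe sets kept, and no array was left out. Of 10 markers of plasma cells and myeloma, 10 lay above the 40th percentile on all 12 arrays. Of 13 measured markers of other cell types, 6 to 8 lay above it on each array. CD3E, CD2, HBB, COL1A1, PECAM1 and KRT8 did so on all 12, with mean log2 values from 5.50 for CD3E to 8.38 for PECAM1. LYZ did so on 4 arrays and EPCAM on 2, while CD3D, CD14, MPO, ALAS2 and COL3A1 did so on none. The mean log2 value of these 13 markers was 4.63 to 4.82 on untreated arrays, 4.81 to 5.17 with CHR-3996, 4.69 to 4.88 with tosedostat and 5.15 to 5.30 with the combination. The 3′ probe set of the β-actin control exceeded the 5′ one, a measure of RNA integrity, by 2.14 ± 0.17 (SD, n = 3) on the log2 scale in untreated cells. The difference was 1.59 ± 0.17 (SD, n = 3) with CHR-3996, 2.09 ± 0.11 (SD, n = 3) with tosedostat and 1.24 ± 0.15 (SD, n = 3) with the combination. For the GAPDH control the 3′ to 5′ difference was 0.44 ± 0.06 (SD, n = 3) in untreated cells and 0.45 ± 0.06 (SD, n = 3) with CHR-3996. It was 0.43 ± 0.08 (SD, n = 3) with tosedostat and 0.35 ± 0.09 (SD, n = 3) with the combination. The marker mean and the β-actin difference moved with the 2 groups that received CHR-3996, in which most member changes were called. The part of these measures in the results was not tested. Array medians also differed, at 5.04, 5.26, 5.05 and 5.29 in the same order of groups, and setting them equal lowered the median log2 change over all genes from 0.11 to -0.11 with CHR-3996 and from 0.15 to -0.10 with the combination. In RNA from a bulk culture, fewer expressing cells and less RNA per cell cannot be told apart.

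Promoter windows of RefSeq (GRCh38.p14), from 250 bases before to 50 after a gene's start, were given for 8 of the 10 members in 10 windows, since NFE2L2 and KEAP1 each have 2. HMOX1 and PRDX1 had no entry. The core of the antioxidant response element, TGACNNNGC on either strand, was present in 13.3% of all 35116 windows and in those of 2 members, KEAP1 and GCLM. In the window of KEAP1 at its downstream start, on the minus strand at chr19:10502772-10503021, it begins at positions -54 and -31, counted back from -1 at the base before the start. In that of GCLM, on the minus strand at chr1:93909431-93909680, it begins at -34. These sequences are shown because they hold the element, and that of NQO1, on the minus strand at chr16:69726561-69726810, because NQO1 had the largest changes of the 10 members with CHR-3996 and with the combination. They run 5′ to 3′ up to the base before the start, and capitals mark the element in KEAP1 and GCLM and the SP1 box GGGCGG, on either strand, in NQO1.
KEAP1: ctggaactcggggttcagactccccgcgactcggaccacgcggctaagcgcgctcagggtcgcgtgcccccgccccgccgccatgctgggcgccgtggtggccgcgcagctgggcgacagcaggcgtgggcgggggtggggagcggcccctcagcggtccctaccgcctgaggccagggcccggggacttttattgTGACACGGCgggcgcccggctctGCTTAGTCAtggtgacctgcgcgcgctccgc
GCLM: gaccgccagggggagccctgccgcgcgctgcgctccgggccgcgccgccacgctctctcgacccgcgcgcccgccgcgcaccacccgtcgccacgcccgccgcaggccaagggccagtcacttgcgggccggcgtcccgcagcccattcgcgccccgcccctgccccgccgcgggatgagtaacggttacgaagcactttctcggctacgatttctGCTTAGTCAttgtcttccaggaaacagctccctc
NQO1: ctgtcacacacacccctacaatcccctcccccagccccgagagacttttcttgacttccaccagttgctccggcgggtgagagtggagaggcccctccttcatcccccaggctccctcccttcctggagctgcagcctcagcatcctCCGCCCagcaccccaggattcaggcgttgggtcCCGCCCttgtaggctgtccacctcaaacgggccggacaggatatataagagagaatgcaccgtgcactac
The downstream match in KEAP1 and that in GCLM have the same letters, GCTTAGTCA, on the strand printed. The SP1 box was found in 45% of all windows and in windows of NFE2L2, KEAP1, NQO1, GCLM, TXN and SLC48A1, with 1 to 4 matches each. The AP-1 site TGACTCA (4.95% of all windows) and the CHOP and ATF4 core TGATGNAA (3.62%) were in none of the 10 windows. A match is a string of letters and not a bound site, and elements farther from the start lie outside these windows.

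Against untreated cells, 5 of the 10 genes were called with CHR-3996 and 7 with the combination, and KEAP1 was the only member called lower. Of all genes, 31.7% were called higher and 18% lower with CHR-3996, and 34.6% and 15.9% with the combination. With tosedostat these shares were 4.25% and 0.545%. NQO1, HMOX1, GCLC and SLC48A1 rose with CHR-3996, by 5.13-fold, 2.47-fold, 2.11-fold and 2.01-fold, while KEAP1 fell 3.66-fold. The same 5 genes were called with the combination, where NQO1 rose 9.13-fold, HMOX1 5.44-fold, GCLC 2.59-fold and SLC48A1 2.29-fold and KEAP1 fell 2.58-fold. SRXN1 and PRDX1 were called with the combination too, at 1.62-fold and 1.55-fold higher. Tosedostat alone gave 2 calls, NQO1 and GCLM, at 1.64-fold and 1.46-fold higher. TXN and NFE2L2 itself were called in none of these comparisons.

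The threshold for a call was an adjusted p of 0.05 from limma (Benjamini-Hochberg, over all 36395 probe sets kept), and each gene is represented by its brightest kept probe set. With CHR-3996, 4 of 10 members were higher and 1 was lower, where 31.7% of all 15587 genes were called higher and 18% lower, so these shares lie near those of all genes. With the combination, 6 members were higher and 1 lower, against 34.6% and 15.9% of all genes. With tosedostat, 2 were higher and 0 lower, against 4.25% and 0.545%. The members had a median log2 fold change of 0.20 with CHR-3996, 0.40 with tosedostat and 0.66 with the combination, beside 0.11, 0.04 and 0.15 over all genes. With every array at the same median, the member medians were -0.0239, 0.392 and 0.415, beside -0.11, 0.0312 and -0.0979 over all genes. Quantile normalization gave 0.211, 0.343 and 0.584, beside -0.0849, -0.0113 and -0.1. The sign of the member median with CHR-3996 therefore depends on the scaling. Over the 20 kept probe sets of the members, 10 were higher and 1 lower with CHR-3996 (29.4% and 15.7% of all kept probe sets), 6 and 0 with tosedostat (3.23% and 0.451%), and 13 and 1 with the combination (32% and 14.1%). After the medians of the arrays were made equal, CHR-3996 gave 4 higher and 3 lower members, GCLM and TXN being added as lower, and quantile normalization gave 4 and 2, GCLM being added. The 3 comparisons share the untreated arrays.

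**Figure D1:**
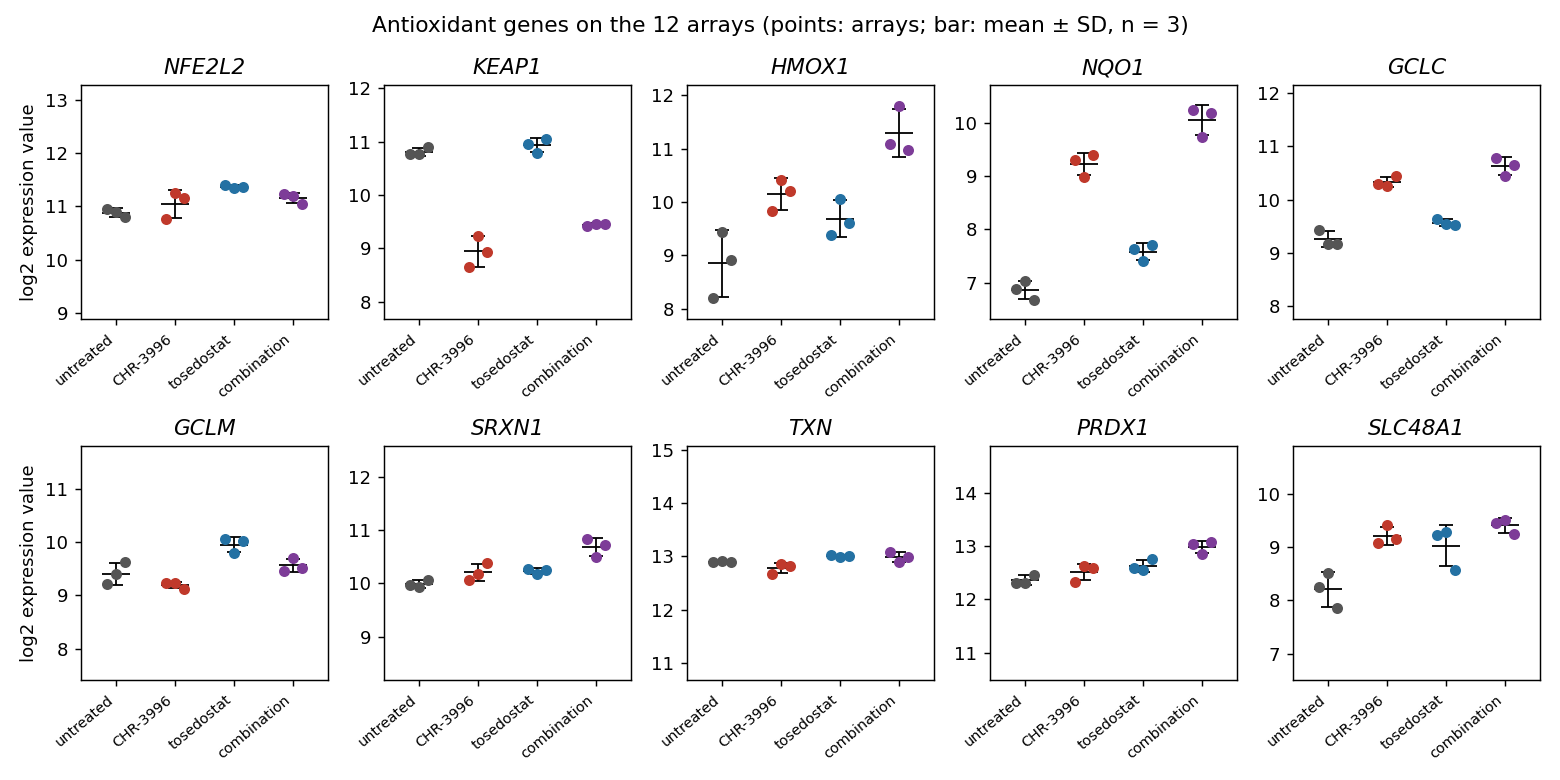
Log2 expression values of the 10 genes on the 12 arrays, by group, with points for single arrays in replicate order and bars for the mean ± SD (n = 3); every panel spans 4.4 log2 units. KEAP1 is low on all 6 arrays that received CHR-3996, and NQO1 rises in the order untreated, tosedostat, CHR-3996, combination with no overlap between groups.

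The transcription factor's own mRNA was not called against untreated cells with any treatment in the fit as reported. By its brightest probe set the largest change was with tosedostat, at 0.49 higher on the log2 scale. NFE2L2 had log2 values of 10.95, 10.90 and 10.79 on untreated arrays, 10.75, 11.24 and 11.16 with CHR-3996, 11.40, 11.35 and 11.36 with tosedostat, and 11.22, 11.19 and 11.05 with the combination. All tosedostat and combination arrays lay above all untreated arrays, while the CHR-3996 arrays overlapped them. The log2 fold change was 0.17 (95% interval -0.12 to 0.46, adjusted p = 0.331) with CHR-3996, 0.49 (0.20 to 0.78, adjusted p = 0.0737) with tosedostat and 0.27 (-0.02 to 0.56, adjusted p = 0.119) with the combination. CHR-3996 replicate 1 was the lowest array of the 12, and without it NFE2L2 was called higher in each comparison, at adjusted p of 0.0314, 0.0203 and 0.0351 with log2 fold changes of 0.32, 0.49 and 0.27. With tosedostat it also passed after quantile normalization (0.45, adjusted p = 0.016). It passed there too with a filter at the 60th percentile (adjusted p = 0.0339) and with a variance trend and robust estimation (adjusted p = 0.0186). The dimmer kept probe set of NFE2L2 gave values of -0.46, 0.13 and -0.27, none called, so the probe sets differ in sign with CHR-3996 and with the combination. Another probe set lay below the filter on all 12 arrays, and 1 more is assigned to NFE2L2 together with CSNK2A1 and was not used.

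KEAP1, the sensor that restrains NRF2, was lowered by CHR-3996. Its log2 values were 10.77, 10.77 and 10.90 on untreated arrays and 10.96, 10.78 and 11.06 with tosedostat. They were 8.65, 9.22 and 8.94 with CHR-3996, and 9.41, 9.45 and 9.46 with the combination. No array with CHR-3996 overlapped an array without it, and the untreated and tosedostat arrays overlapped. KEAP1 fell by 1.87 on the log2 scale (adjusted p = 1.94e-06, SE 0.14) with CHR-3996 and by 1.37 (adjusted p = 1.58e-05, SE 0.14) with the combination, and its value with tosedostat was 0.12 (95% interval -0.19 to 0.44, adjusted p = 0.752). The combination arrays were all above the CHR-3996 arrays, by 0.50 (0.19 to 0.82), which missed the threshold over all probe sets (adjusted p = 0.262). A single probe set measures KEAP1.

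Among genes of heme handling, HMOX1, the oxygenase that breaks heme down to biliverdin, iron and carbon monoxide, rose in both groups given CHR-3996. Its values were 8.19, 9.44 and 8.91 on untreated arrays, 9.83, 10.41 and 10.21 with CHR-3996, 9.38, 10.06 and 9.61 with tosedostat, and 11.09, 11.80 and 10.98 with the combination. The 3 combination arrays were the highest of the 12, the CHR-3996 arrays all exceeded the untreated ones, and the tosedostat arrays overlapped both the untreated and the CHR-3996 arrays. HMOX1 had the widest spread of the members, with an SD of 0.63 on untreated arrays, and in every group replicate 2 was the highest. The log2 fold change was 1.30 (adjusted p = 0.00667, SE 0.32) with CHR-3996, 2.44 (adjusted p = 9.64e-05, SE 0.32) with the combination and 0.84 (0.12 to 1.55, adjusted p = 0.222) with tosedostat. With the replicate number as a block, HMOX1 passed the threshold with tosedostat (adjusted p = 0.0221).

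SLC48A1, a transporter that moves heme out of endosomes and lysosomes, had values of 8.25, 8.52 and 7.86 on untreated arrays, 9.08, 9.41 and 9.15 with CHR-3996, 9.22, 9.29 and 8.58 with tosedostat, and 9.46, 9.51 and 9.25 with the combination. Every treated array lay above every untreated one. The log2 fold change was 1.00 (adjusted p = 0.00253, SE 0.21) with CHR-3996 and 1.20 (adjusted p = 0.000786, SE 0.21) with the combination. With tosedostat it was 0.82 (0.35 to 1.29), which missed the threshold (adjusted p = 0.0649). It passed with the replicate block (adjusted p = 0.0119) and without tosedostat replicate 3, the lowest of that group (1.05, adjusted p = 0.0267). It also passed with a filter at the 60th percentile (adjusted p = 0.0296) and with a variance trend and robust estimation (adjusted p = 0.0181). Both other probe sets of SLC48A1 were also called with CHR-3996, at 0.42 and 1.09, and with the combination, at 0.50 and 1.26.

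NQO1, the quinone reductase often used as a readout of NRF2, changed most among the members with CHR-3996 and with the combination. Its values were 6.88, 7.03 and 6.68 on untreated arrays, 7.64, 7.40 and 7.70 with tosedostat, 9.29, 8.99 and 9.38 with CHR-3996, and 10.24, 9.73 and 10.19 with the combination. The 4 groups did not overlap. The log2 fold change was 2.36 (adjusted p = 1.42e-06, SE 0.17) with CHR-3996 and 3.19 (adjusted p = 2.27e-07, SE 0.17) with the combination. Both other probe sets gave 1.72 and 1.24 with CHR-3996 and 2.82 and 2.24 with the combination, all called. All 3 probe sets of NQO1 can match several transcripts by their names, so none was left for an estimate without such probe sets.

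With tosedostat NQO1 was 0.72 higher on the log2 scale (adjusted p = 0.0446, SE 0.17), and by the other probe sets 1.06 and 0.67 higher (adjusted p = 0.0282 and 0.0181). The call of the brightest probe set did not survive most single omissions: it held without CHR-3996 replicate 2 and without combination replicate 2, and was lost without any 1 of the other 10 arrays, with values of 0.63 to 0.81 and adjusted p up to 0.155. Of the kept member genes, 2 were called with tosedostat, and 4 with the replicate number as a block, HMOX1 and SLC48A1 being added.

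GCLC and GCLM encode the catalytic and the modifier subunit of glutamate-cysteine ligase, which makes the first bond of glutathione, and they behaved differently. GCLC had values of 9.43, 9.17 and 9.17 on untreated arrays, 10.29, 10.26 and 10.44 with CHR-3996, 9.65, 9.55 and 9.52 with tosedostat, and 10.79, 10.45 and 10.66 with the combination. All arrays with CHR-3996 exceeded all arrays without it. GCLC rose by 1.07 on the log2 scale (adjusted p = 3.34e-05, SE 0.12) with CHR-3996 and by 1.37 (adjusted p = 5.51e-06, SE 0.12) with the combination, and its value with tosedostat was 0.31 (0.04 to 0.59, adjusted p = 0.228). A second bright probe set gave called values of 0.78 and 1.15 with CHR-3996 and the combination. A dim one gave 0.19 and 0.27, not called.

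GCLM, by its brightest probe set, had values of 9.21, 9.40 and 9.62 on untreated arrays, 9.24, 9.23 and 9.12 with CHR-3996, 10.06, 9.80 and 10.01 with tosedostat, and 9.46, 9.70 and 9.52 with the combination. The tosedostat arrays were above all others, and the CHR-3996 and combination arrays overlapped the untreated ones. The log2 fold change was 0.55 (adjusted p = 0.0473, SE 0.13) with tosedostat, -0.21 (-0.50 to 0.08, adjusted p = 0.226) with CHR-3996 and 0.15 (-0.14 to 0.45, adjusted p = 0.376) with the combination. The tosedostat call was kept only without untreated replicate 3 and lost without any 1 of the other 11 arrays, with values of 0.45 to 0.65 over all omissions and adjusted p up to 0.174. The probe sets of GCLM disagreed. The other 2 were called higher with tosedostat, at 0.99 (adjusted p = 0.00375) and 0.73 (adjusted p = 0.00987), and with the combination, at 1.05 (adjusted p = 0.000104) and 0.70 (adjusted p = 0.000772). With CHR-3996 they gave 0.45 (adjusted p = 0.0227) and 0.03 (adjusted p = 0.881). So the rise of GCLM with tosedostat was seen by all 3 probe sets, while the sign of its value with CHR-3996 depends on the probe set.

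**Figure D2:**
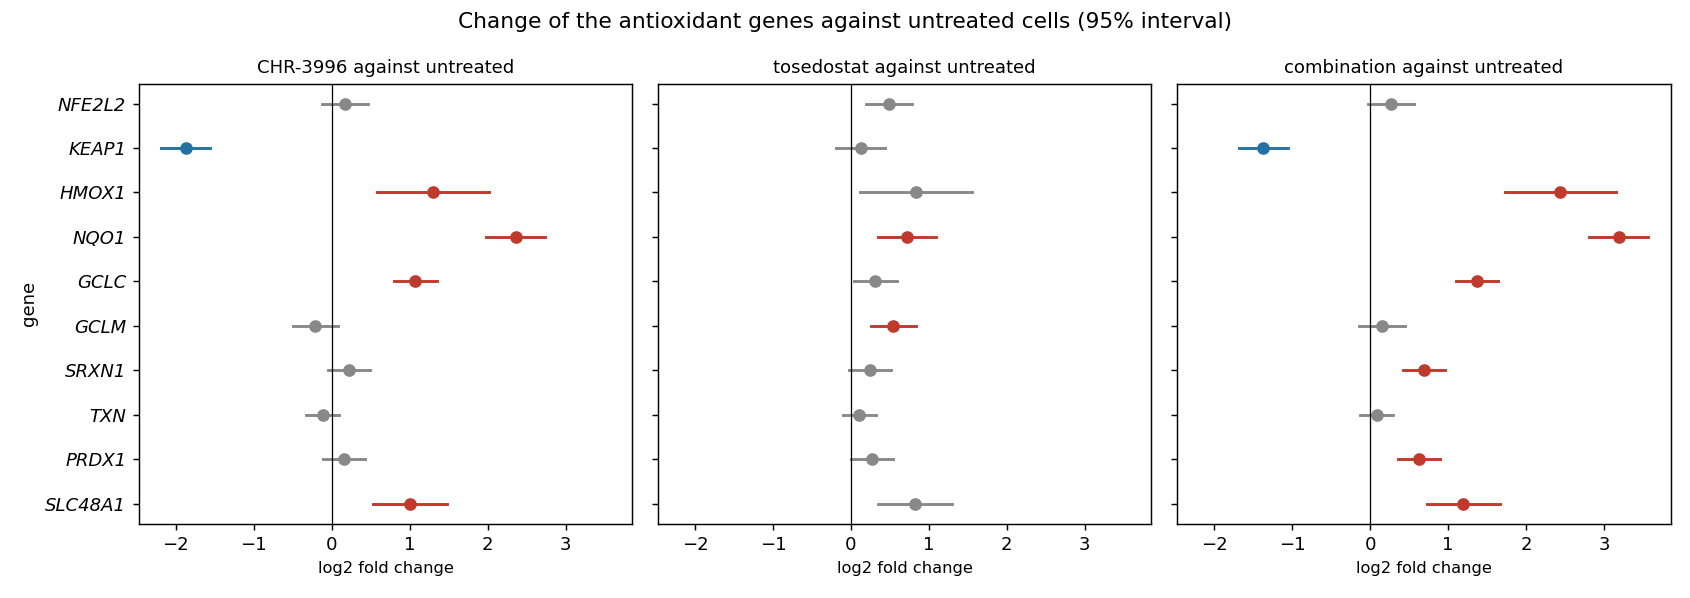
Log2 fold change of each gene against untreated cells for the 3 treatments, as points with 95% intervals from limma (12 arrays, 3 per group); red marks called higher, blue called lower and grey not called. KEAP1 alone lies below 0 among the called genes, and NQO1 reaches 3.19 with the combination.

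In the thioredoxin arm, SRXN1 and PRDX1 were called with the combination and TXN was not. SRXN1, sulfiredoxin, which repairs overoxidized peroxiredoxins, had values of 9.96, 9.93 and 10.07 on untreated arrays, 10.07, 10.17 and 10.38 with CHR-3996, 10.27, 10.17 and 10.26 with tosedostat, and 10.83, 10.49 and 10.72 with the combination. The combination arrays were the 3 highest of the 12. SRXN1 rose by 0.70 on the log2 scale (adjusted p = 0.000704, SE 0.12) with the combination, and its values with CHR-3996 and tosedostat were 0.22 (adjusted p = 0.173) and 0.25 (adjusted p = 0.358). PRDX1, a peroxiredoxin that removes hydrogen peroxide, had values of 12.30, 12.30 and 12.46 on untreated arrays, 12.33, 12.62 and 12.58 with CHR-3996, 12.58, 12.55 and 12.75 with tosedostat, and 13.03, 12.85 and 13.07 with the combination. Here too the combination arrays were the highest, and PRDX1 rose by 0.63 (adjusted p = 0.00126, SE 0.12), beside 0.16 (adjusted p = 0.327) with CHR-3996 and 0.27 (adjusted p = 0.291) with tosedostat.

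TXN, thioredoxin itself, which reduces disulfides in other proteins, ranged from 12.89 to 12.90 on untreated arrays, from 12.67 to 12.84 with CHR-3996, from 12.98 to 13.02 with tosedostat, and from 12.89 to 13.07 with the combination. The CHR-3996 arrays were all below and the tosedostat arrays all above the untreated ones, and the combination arrays overlapped them. The log2 fold changes were -0.12 (-0.33 to 0.10), 0.11 (-0.11 to 0.32) and 0.09 (-0.13 to 0.30), with adjusted p of 0.365, 0.668 and 0.507. The other kept probe set of TXN gave -0.25, -0.01 and 0.16, none called.

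Adding CHR-3996 to tosedostat changed 7 of the 10 genes, 5 higher and 2 lower, where 30.4% and 15.8% of all genes were called. NQO1 was 2.47 higher on the log2 scale (adjusted p = 1.67e-06), HMOX1 1.61 (adjusted p = 0.00209), GCLC 1.06 (adjusted p = 4.91e-05), SRXN1 0.45 (adjusted p = 0.0121) and PRDX1 0.36 (adjusted p = 0.0343). KEAP1 and GCLM were lower, with differences of -1.49 (adjusted p = 1.27e-05) and -0.39 (adjusted p = 0.033). The 2 small calls rested on few arrays. GCLM lost its call without tosedostat replicate 1 (-0.34), tosedostat replicate 3 (-0.36), combination replicate 1 (-0.34) or combination replicate 3 (-0.37), and PRDX1 without tosedostat replicate 1 (0.33), tosedostat replicate 2 (0.32), combination replicate 1 (0.33) or combination replicate 3 (0.31). By the other probe sets of GCLM the difference was 0.06 and -0.03, not called. With every array at the same median, SRXN1 (0.21, adjusted p = 0.193) and PRDX1 (0.12, adjusted p = 0.443) were not called, while NFE2L2 was lower (-0.46, adjusted p = 0.0152), as after quantile normalization (-0.28, adjusted p = 0.0184).

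Adding tosedostat to CHR-3996 gave a positive difference for each of the 10 genes, and none passed the threshold over all probe sets. Of all genes, 0.0577% were called higher and 0% lower in this comparison, and the median difference was 0.42 for the members and 0.07 for all genes. At an unadjusted p under 0.05 from limma, 7 of the 10 genes were counted, and by the fold and difference criteria of the study's methods 0. The differences were 1.14 (0.42 to 1.86) for HMOX1, 0.83 (0.45 to 1.21) for NQO1, 0.50 (0.19 to 0.82) for KEAP1, 0.48 (0.21 to 0.74) for SRXN1 and 0.47 (0.21 to 0.74) for PRDX1, on the log2 scale with 95% intervals. All 3 combination arrays lay above all 3 CHR-3996 arrays for these 5 genes. They also did so for GCLM (0.37), GCLC (0.30) and TXN (0.20), and the arrays overlapped for SLC48A1 (0.19) and NFE2L2 (0.10). The shares of all genes without such overlap, with a positive difference, or with an unadjusted p under 0.05 were not counted. These member counts are therefore a description and not a result about the members. Adjusted p for the 10 genes ran from 0.154 for NQO1 to 0.852 for NFE2L2. With a variance trend and robust estimation NQO1 passed (adjusted p = 0.0439), and its probe set with the smallest spread was called in the fit as reported, at 1.00 (adjusted p = 0.0256).

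Between the single compounds, CHR-3996 gave higher values than tosedostat for NQO1 by 1.64 (adjusted p = 2.15e-05) and GCLC by 0.76 (adjusted p = 0.000481). It gave lower values for KEAP1, with a difference of -2.00 (adjusted p = 2.07e-06), and for GCLM, with one of -0.76 (adjusted p = 0.000756). Of all genes, 27.9% were called higher and 19.3% lower. The 3 probe sets of GCLM were all called lower here, at -0.76, -0.54 and -0.70. HMOX1 was 0.47 higher with CHR-3996 (-0.25 to 1.18, adjusted p = 0.284), and passed with the replicate number as a block (adjusted p = 0.0466). With every array at the same median 2 members were higher and 5 lower, NFE2L2, TXN and PRDX1 being added as lower.

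**Figure D3:**
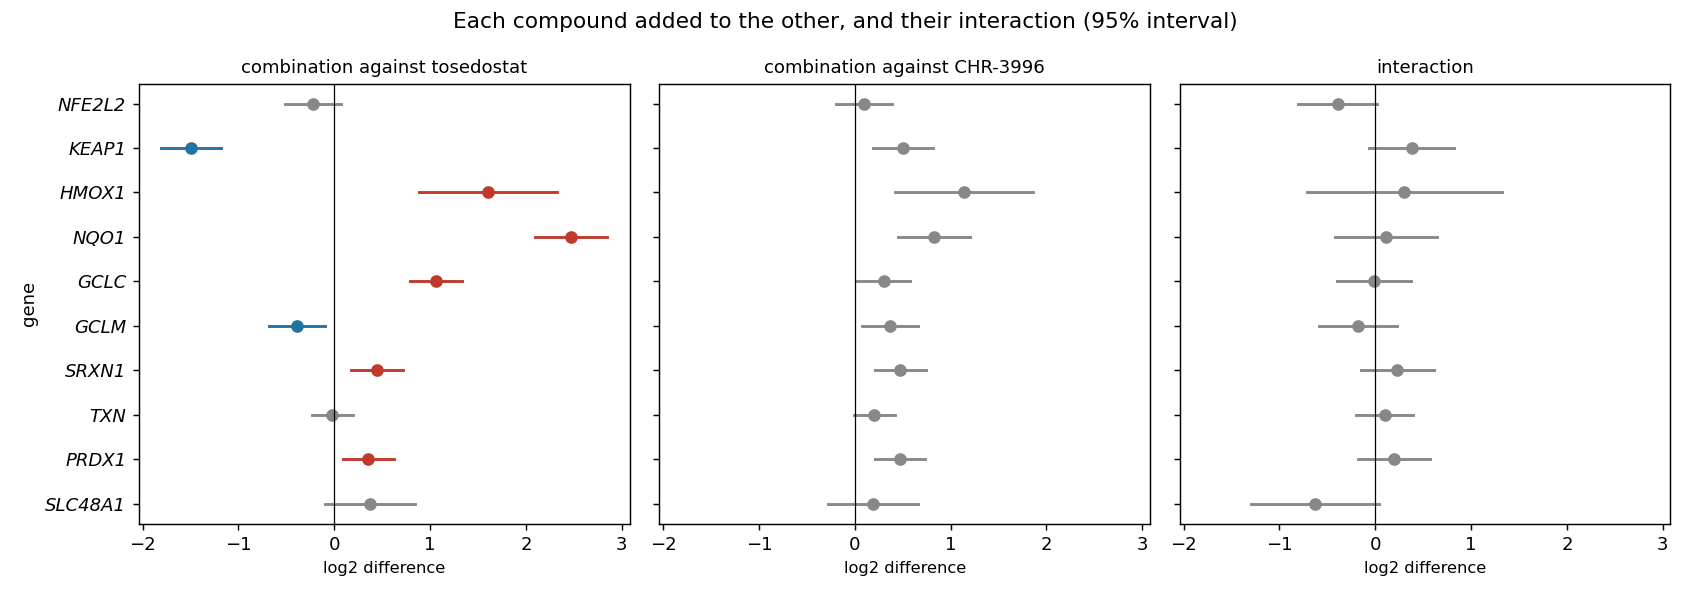
Log2 differences with 95% intervals from limma for the combination against tosedostat, the combination against CHR-3996, and the interaction, which is the effect of CHR-3996 with tosedostat present minus its effect without; red marks called higher, blue called lower and grey not called. Against CHR-3996 all 10 points lie above 0 and none is called, and in the interaction the intervals of all 10 genes include 0.

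The interaction asks whether the effect of 1 compound differs with the other present. None of the 10 genes was called by limma, beside 0.0321% of all genes called higher and 0.244% lower. At an unadjusted p under 0.05 from limma, 0 members were counted, and the share of all genes at that threshold was not counted. Estimates ran from -0.63 (-1.30 to 0.04) for SLC48A1 to 0.38 (-0.07 to 0.82) for KEAP1. NQO1 had 0.11 (-0.42 to 0.64), GCLC -0.01 (-0.40 to 0.37), SRXN1 0.23 (-0.15 to 0.61) and PRDX1 0.20 (-0.18 to 0.57). HMOX1 had the widest interval, at 0.30 (-0.71 to 1.32), and NFE2L2 had -0.39 (-0.80 to 0.02). These widths do not show that the effects of the compounds add up.

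Ordered by level, the groups followed different sequences for different genes. NQO1, GCLC and HMOX1 ran from untreated through tosedostat and CHR-3996 to the combination. Of the neighbours in this order, untreated and tosedostat differed for NQO1, tosedostat and CHR-3996 differed for NQO1 and GCLC, and no pair of neighbours passed for HMOX1. SLC48A1 had the same order, with no neighbours that differed past the threshold. SRXN1 and PRDX1 were highest with the combination, which differed from tosedostat, the next level for SRXN1 by 0.45 and for PRDX1 by 0.36. By its brightest probe set GCLM was highest with tosedostat, which differed from the combination. The other probe sets of GCLM gave 0.06 and -0.03 for the combination against tosedostat, not called. KEAP1 was lowest with CHR-3996 and differed between the combination and untreated cells, and NFE2L2 and TXN had no neighbours that differed. Of 12 single omissions, 10 lost the NQO1 call between untreated and tosedostat. The calls of GCLM and PRDX1 between tosedostat and the combination were lost in 4 each.

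Beyond the members, 90 genes of the same pathways were listed in 7 groups, of which 78 were measured, 4 lay below the filter (GPX2, MGST1, GGT1 and ABCC2) and 8 were not analysed here. With CHR-3996 32 were higher and 15 lower, with tosedostat 15 and 1, and with the combination 37 and 11. Of all genes, 31.7% were called higher and 18% lower with CHR-3996, 4.25% and 0.545% with tosedostat, and 34.6% and 15.9% with the combination. The counts of single lists below are to be read beside these shares. For CHR-3996 the shares of the 78 genes also lie near those of all genes. The split depends on the scaling. With every array at the same median it was 27 and 25 for CHR-3996 and 30 and 24 for the combination. With quantile normalization it was 30 and 23, and 32 and 22. For tosedostat it was 15 and 1 with equal medians and 17 and 1 with quantile normalization. The median log2 fold change over the 78 genes was 0.15, 0.16 and 0.26 for the 3 treatments.

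**Figure D4:**
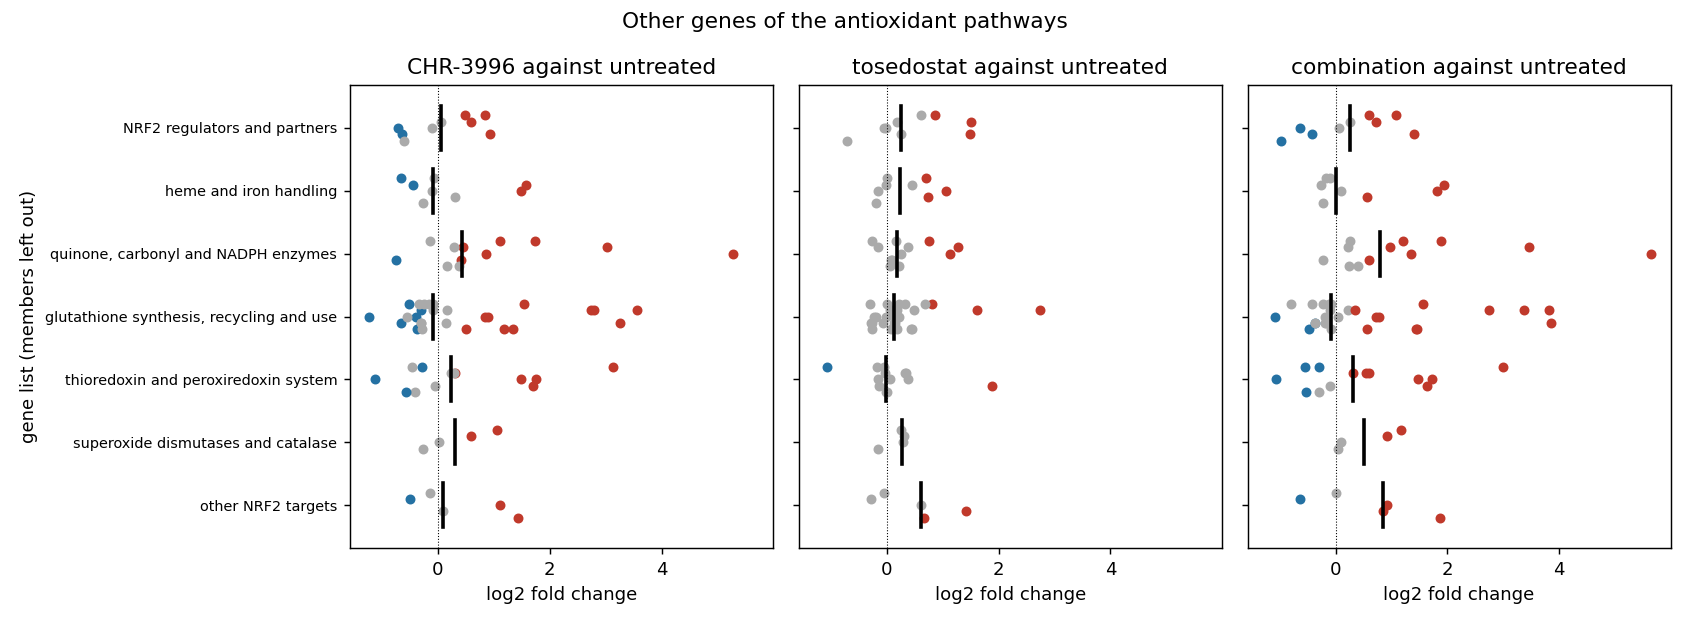
Log2 fold change against untreated cells of the 78 measured pathway genes other than the members, by list; each point is a gene, red called higher, blue called lower and grey not called, and black bars are list medians. Most points are grey with tosedostat, and AKR1C3 lies farthest to the right with CHR-3996 and the combination.

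Of 9 measured regulators and partners of NRF2, 4 were higher and 2 lower with CHR-3996, 3 and 0 with tosedostat, and 4 and 3 with the combination, with list medians of 0.05, 0.25 and 0.26 on the log2 scale. With equal array medians the counts were 3 and 4 with CHR-3996 and 3 and 3 with the combination. SQSTM1, the p62 adaptor that binds KEAP1 and carries it to autophagosomes, rose by 0.93 on the log2 scale with CHR-3996, 1.48 with tosedostat and 1.41 with the combination. By its most variable probe set SQSTM1 gave values up to 4.61 with the combination, so the size depends on the probe set. BACH1, a repressor that competes with NRF2 at its elements and restrains HMOX1, rose by 0.85, 0.86 and 1.07. NFE2L1, a relative of NRF2 that controls proteasome genes, rose with tosedostat by 1.51 (adjusted p = 0.00123), while its values were 0.05 with CHR-3996 and 0.26 with the combination, not called. RBX1, a subunit of the ligase that KEAP1 serves, fell by 0.72 with CHR-3996 and 0.64 with the combination, and DPP3, which also binds KEAP1, by 0.64 and 0.42. BTRC, part of another ligase for NRF2, rose by 0.59 and 0.72, and MAFF, a small MAF partner of NRF2, fell by 0.98 with the combination. DPP3 lost its call with the combination without some arrays (adjusted p up to 0.0793), and BTRC was not called after quantile normalization (0.21 with CHR-3996 and 0.26 with the combination) or, with CHR-3996, by another probe set (0.39, adjusted p = 0.0898).

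Among 8 genes of heme and iron handling, 2 were higher and 2 lower with CHR-3996, 3 and 0 with tosedostat, and 3 and 0 with the combination, with medians of -0.09, 0.23 and 0.00045. The direction with the combination turned with the scaling, to 2 higher and 3 lower after quantile normalization and 2 and 4 with equal array medians. BLVRB, a biliverdin and flavin reductase, rose by 1.48, 1.06 and 1.81 with CHR-3996, tosedostat and the combination. BLVRA, the main biliverdin reductase, rose by 1.58 with CHR-3996 and 1.95 with the combination by a probe set that can match several transcripts, but gave -0.10 and 0.31, not called, by one that does not. HMOX2, the constitutive heme oxygenase, fell by 0.45 with CHR-3996, a call lost in 6 of 22 alternatives (adjusted p up to 0.206). ABCB6, a porphyrin transporter, fell by 0.66 with CHR-3996 and rose by 0.70 with tosedostat, and FECH, which inserts iron into heme, rose by 0.74 with tosedostat and 0.57 with the combination. The FECH call with tosedostat was lost in 11 of 22 alternatives (adjusted p up to 0.14).

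Of 12 quinone, carbonyl and NADPH enzymes, 7 were higher and 1 lower with CHR-3996, 3 and 0 with tosedostat, and 7 and 0 with the combination. The medians were 0.44, 0.19 and 0.79, and under both other scalings the combination gave 7 or 8 higher and 1 lower. AKR1C3 and AKR1C2, aldo-keto reductases, rose by 5.28 and 3.02 with CHR-3996 and by 5.65 and 3.46 with the combination. Both lay below the 40th percentile on all untreated arrays, at 2.23 ± 0.96 and 3.93 ± 0.44 (SD, n = 3), so the size of these rises is uncertain, and the AKR1C genes are near-identical, so their signals may be shared. IDH1, which makes NADPH in the cytosol, rose by 1.73, 0.76 and 1.89 with CHR-3996, tosedostat and the combination. ME1, the NADPH-producing malic enzyme, rose by 0.45, 1.28 and 0.97 in the same order, and NQO2, a relative of NQO1, by 0.86, 1.13 and 1.35, though another probe set of NQO2 gave 0.04 with tosedostat. PGD, of the pentose phosphate pathway, fell by 0.74 with CHR-3996.

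Of 27 measured genes of glutathione synthesis, recycling and use, 10 were higher and 6 lower with CHR-3996, 3 and 0 with tosedostat, and 11 and 3 with the combination. The medians were -0.09, 0.13 and -0.07, so with CHR-3996 and the combination the median and the balance of calls differ in sign. With equal array medians the counts were 9 and 9 with CHR-3996 and 8 and 10 with the combination. CHAC1, an enzyme that degrades glutathione, rose by 2.79, 2.74 and 3.37 with CHR-3996, tosedostat and the combination, while its relative CHAC2 fell by 1.23 with CHR-3996 and 1.08 with the combination. SLC7A11, the cystine importer that feeds glutathione synthesis, rose by 2.73 with CHR-3996, 1.62 with tosedostat and 2.75 with the combination. GLRX, glutaredoxin, rose by 1.53, 0.81 and 1.56 in the same order. The transferases GSTA4 and GSTM3 rose by 3.55 and 3.26 with CHR-3996 and by 3.81 and 3.85 with the combination. GSTM3 lay below the 40th percentile on all untreated arrays, and a probe set outside those that can match several transcripts gave -0.23 and -0.20, not called. GGCT, which acts on the products of glutathione breakdown, fell by 0.66 and 0.37, SLC3A2, the partner chain of SLC7A11, by 0.52 with CHR-3996, and GPX1, a glutathione peroxidase, by 0.38 with CHR-3996 and 0.48 with the combination. The SLC3A2 call was lost in 14 of 21 alternatives (adjusted p up to 0.144), and that of GGCT with the combination in 7 of 21 (adjusted p up to 0.0791).

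In the thioredoxin and peroxiredoxin list, 5 of 13 genes were higher and 3 lower with CHR-3996, 1 and 1 with tosedostat, and 7 and 4 with the combination, with medians of 0.23, -0.0085 and 0.32. With equal array medians the counts were 4 and 5 with CHR-3996 and 5 and 5 with the combination. TXNIP, the inhibitor of thioredoxin, rose by 3.12 with CHR-3996 and 2.99 with the combination and fell by 1.07 with tosedostat. SESN2, a stress-induced sestrin, rose by 1.70 with CHR-3996, 1.89 with tosedostat and 1.64 with the combination, and its relative SESN1 by 1.76 with CHR-3996 and 1.72 with the combination. The mitochondrial genes TXNRD2 and TXN2 fell by 1.13 and 0.58 with CHR-3996 and by 1.06 and 0.52 with the combination, but TXNRD2 was not called by a probe set outside those that can match several transcripts (-0.27 and -0.16). PRDX4, a peroxiredoxin of the endoplasmic reticulum, fell by 0.29 with CHR-3996 and by 0.29 with the combination. Its call with CHR-3996 was lost in 12 of 22 alternatives (adjusted p up to 0.133). MSRA, which repairs oxidized methionine, fell by 0.54 with the combination, a call lost in 11 of 22 alternatives (adjusted p up to 0.17).

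Of 4 superoxide dismutases, catalase and their copper chaperone, 2 were higher with CHR-3996 and with the combination and 0 with tosedostat, with medians of 0.30, 0.28 and 0.51 for CHR-3996, tosedostat and the combination. With CHR-3996 the counts were 1 higher and 1 lower after quantile normalization, where CCS lost its call (0.28, adjusted p = 0.0597), and 2 and 1 with equal array medians. CAT, catalase, rose by 1.05 and 1.17, and CCS, the copper chaperone of superoxide dismutase, by 0.59 and 0.91. Of 5 other measured targets of NRF2, 2 were higher and 1 lower with CHR-3996, 2 and 0 with tosedostat, and 3 and 1 with the combination, with medians of 0.09, 0.62 and 0.85. After quantile normalization CHR-3996 and the combination each gave 2 higher and 2 lower. TRIM16, a ubiquitin ligase, rose by 1.42, 0.67 and 1.86 with CHR-3996, tosedostat and the combination. PIR, an iron-binding nuclear protein, rose by 1.42 with tosedostat and 0.85 with the combination, and OSGIN1, an oxidative stress inhibitor of growth, by 1.11 with CHR-3996 and 0.93 with the combination. ABCC4, an efflux pump, fell by 0.49 and 0.63, with values of 0.33 and 0.89 by another probe set, so its direction is uncertain.

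The genes most similar to the members over the 12 arrays, by Pearson's r of log2 values over arrays that share the 4 groups, included other members. GCLC was most similar to MNAT1 (0.991) and NQO1 (0.988), and SRXN1 to COX18 (0.965) and PRDX1 (0.953). KEAP1 was most similar to IMP4 (0.996) and DDRGK1 (0.995), NQO1 to ZNF789 (0.993) and ELOVL7 (0.992), HMOX1 to GDAP2 (0.9750) and INVS (0.968), and SLC48A1 to ZSCAN29 (0.992) and VAC14 (0.969). PRDX1 was most similar to NAGK (0.964) and TM2D2 (0.963), TXN to KCMF1 (0.963) and DLD (0.959), GCLM to COG7 (0.935) and ACTL10 (0.911), and NFE2L2 to MBD2 (0.934) and DNAJB9 (0.933). These values were chosen as the highest of all genes and are a description.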

How the data were processed

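Gene expression was measured on 12 Affymetrix U133 Plus 2.0 arrays. The authors amplified 100 ng of RNA in 2 cycles, labelled it with biotin and normalized the arrays in dChip, and each array was deposited as 1 log2 value per probe set. Which dChip version and which of its models were used is not stated in the sources at hand, and that the scale is log2 was read from the values. Every array has 1141 to 1344 values of exactly 0.

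Of 54675 probe sets, 62 controls were left out, and those above the 40th percentile of an array (4.42 to 4.65) on at least 3 arrays were kept, 36395 of 54613. The 12 arrays were fitted together with limma 3.58.1 (R 4.3.3), with 1 term for each of 4 groups, 8 residual degrees of freedom and no further normalization, and 7 contrasts were tested: the 6 pairs of groups and the interaction. Called means a Benjamini-Hochberg adjusted p under 0.05 within the contrast; intervals are 95% intervals from the fit, not adjusted. Of kept probe sets, 29161 have 1 gene symbol in the platform annotation, 1365 several and 5869 none, and a gene is represented by its brightest kept probe set with 1 symbol (15587 genes). The number of arrays limits the precision.

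The members and the 7 lists were chosen with earlier results of these data known. Named are all members, up to 3 called genes of each list in each direction against untreated cells, by the largest log2 change, and for each member the 2 genes with the highest correlation. Values of these genes outside the comparison that named them were added after they were seen. Alternatives were 2 other scalings, no filter and a 60th percentile filter, a fit on the compared groups alone, robust estimation with a variance trend, the replicate number as a block, the methods' criteria on linear values (fold of at least 2, difference above 100, unadjusted p under 0.05 with unequal variances), 2 other choices of probe set, and leaving out each array. Replicate numbers 1 to 3 recur in every group, and what they mark is not stated. After subtraction of group means, arrays of the same number had correlations above 0.1 in each of the 3 pairs for tosedostat with untreated cells (0.126 to 0.288), the single compounds (0.116 to 0.157), and the combination with CHR-3996 (0.179 to 0.28) and with tosedostat (0.19 to 0.233), so blocked values are given there where a call changed; they did not for untreated cells with CHR-3996 (0.0358 to 0.12) or the combination (0.0981 to 0.168). Plots used Python 3.11.15 and matplotlib 3.10.9.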

Additional observations from a re-analysis of the deposited data

Results flagged for a closer look

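Of the 88 genes looked at, the 10 members and 78 listed pathway genes, 2 had an interaction past the threshold (limma, over all kept probe sets). The effect of CHR-3996 on SESN2 differed with tosedostat present by -1.95 on the log2 scale (adjusted p = 0.0127, SE 0.24), with 2 of 2 kept probe sets called. SESN2 was 1.70 higher with CHR-3996, 1.89 with tosedostat and 1.64 with the combination. It lost the call without CHR-3996 replicate 2 (-1.91, adjusted p = 0.0518) and kept it in the other 18 alternatives run. For SQSTM1 the interaction was -1.0035 (adjusted p = 0.0436, SE 0.17), with 1 of 5 kept probe sets called, beside 0.93, 1.48 and 1.41 for the 3 treatments. Its call was lost in 14 of 20 alternatives, among them the omission of any 1 array other than CHR-3996 replicate 1 (adjusted p of 0.0801 to 0.142, values of -1.06 to -0.90).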

How the results depend on the processing

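The calls of KEAP1, HMOX1, NQO1 and GCLC with CHR-3996 and with the combination kept their direction and their side of the threshold in every alternative that gave a value. Of 1513 member values recomputed over 22 alternatives, 52 lost a call, 28 gained one and 28 changed sign, of which 2 concern a value called as reported or under the alternative. Setting arrays to the same median gave NFE2L2 -0.0484 and PRDX1 -0.0625 with CHR-3996, GCLM -0.0922 and TXN -0.16 with the combination, and SLC48A1 -0.0247 for CHR-3996 against tosedostat. Quantile normalization gave GCLM -0.0965 with the combination, TXN 0.0520 for the combination against tosedostat, NFE2L2 -0.0140 for the combination against CHR-3996 and PRDX1 0.00426 for CHR-3996 against tosedostat. By the most variable probe set, NFE2L2 was -0.46 with CHR-3996, -0.27 with the combination and 0.0649 in the interaction, GCLM 0.45 with CHR-3996 and 0.0583 for the combination against tosedostat, and TXN -0.00593 with tosedostat and 0.17 for the combination against tosedostat, the last 2 also by a probe set outside those that can match several transcripts. Among listed genes, that choice gave BLVRA -0.10 and GSTM3 -0.23 with CHR-3996 and GSTM3 -0.20 with the combination, and the most variable probe set gave ABCC4 0.33 and 0.89. For NQO1 no probe set was left under that choice. Members called with tosedostat, 2 as reported, were 1 with quantile normalization, with equal medians and outside such probe sets, 0 with no filter, with the compared groups alone and by the methods' criteria, 4 with the 60th percentile filter, the replicate block and the variance trend, and 0 to 1 on leaving out an array. By the methods' criteria 4 members were called with CHR-3996, SLC48A1 being lost, and 5 with the combination, SRXN1 and PRDX1 being lost. These criteria gave 3 for the combination against tosedostat, with HMOX1, GCLM, SRXN1 and PRDX1 lost. For CHR-3996 against tosedostat they gave 2, where equal medians gave 7. The variance trend gave 1 for the combination against CHR-3996. The replicate block changed no other member call where it applies than HMOX1 and SLC48A1 with tosedostat and HMOX1 for CHR-3996 against tosedostat. Over all kept probe sets, calls numbered 16420 with CHR-3996, 1338 with tosedostat, 16786 with the combination, 23 for the combination against CHR-3996 and 75 in the interaction. The methods' criteria gave 4551, 253 and 4653 for the 3 treatments, 3875 for the combination against tosedostat and 3941 for CHR-3996 against tosedostat. For tosedostat there were 686 with no filter, 2309 with the replicate block, 682 with the compared groups alone and 618 to 1446 without an array. For the combination against CHR-3996 there were 15 with equal medians, 6 with no filter, 43 with the 60th percentile filter, 87 with the variance trend, 3 with the compared groups alone and 1 to 16 without an array. The interaction gave 166 with quantile normalization, 22 with no filter, 224 with the 60th percentile filter, 231 with the replicate block, 245 with the variance trend and 22 to 84 without an array. Leaving out an array moved uncalled values through 0 for TXN in the combination against tosedostat (-0.0630 to 0.0270), NFE2L2 in the combination against CHR-3996 (-0.0480 to 0.20), SRXN1 (-0.11 to 0.0421) and SLC48A1 (-0.0423 to 0.32) for CHR-3996 against tosedostat, and NQO1 (-0.0037 to 0.27) and GCLC (-0.10 to 0.0771) in the interaction. The cause of these shifts was not tested. With 3 arrays per group, small differences are missed.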
